A study of Mus musculus with 8 samples.

Results

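The microRNAs (miRNAs) described here come from 2 small genomic clusters, each of which pairs a precursor of the miR-193 family with a precursor of miR-365. The array carried 4 of their products, named mmu-miR-365, mmu-miR-193, mmu-miR-193* and mmu-miR-193b in the scanner files, and they were taken by those names out of 611 mouse miRNAs. The miRNAs tested were the 222 whose signal stood clear of background on each array of one group or the other, and all 4 did so on every one of the 8 arrays. They were picked by measured values too, namely the UUO minus control difference in these same arrays, so their differences between the groups are given as a description and without a test.

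The samples were 4 UUO kidneys, obstructed for 7 days by unilateral ligation of the ureter, and 4 control kidneys, which were the contralateral, unobstructed kidneys. All were from mice of the outbred ICR strain, with no transgene or further treatment named, and the control kidneys came from operated animals too. Sex, age and the pairing of kidneys by animal are not given in the sources used here. Each array held 1 kidney on 1 slide read in 1 scan, and the p-values below measure only the spread between these kidneys, which the labels do not place in separate mice.

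A miRNA gene is transcribed into a hairpin from which a guide strand and a less abundant strand, marked with an asterisk in the older naming, are cut. The guide represses messenger RNAs that match its seed, bases 2 to 8. In mice the miR-193b and miR-365 cluster has been described in the differentiation of brown fat cells in culture, and miR-193a in the podocytes of the kidney, where it represses the transcription factor WT1. In human cells miR-193a-3p and miR-193b-3p have been described as repressors of the survival protein MCL1, and miR-365 as a repressor of interleukin 6.

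The mature sequences are shown first because they show which product each array name stands for. Names were matched to RefSeq (GRCm38.p6), where mmu-mir-193 is an older name of Mir193a, and all 4 array names found an entry. The sequences run 5′ to 3′ with the seed in capitals.
miR-365 (miR-365-3p): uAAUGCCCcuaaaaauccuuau
miR-193 (miR-193a-3p): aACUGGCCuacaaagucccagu
miR-193b (miR-193b-3p): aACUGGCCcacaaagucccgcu
miR-193* (miR-193a-5p): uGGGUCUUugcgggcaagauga
miR-193 and miR-193b shared the seed ACUGGCC, which no other of the mouse mature names in the RefSeq table carried. Counted from the 5′ end, 19 of their 22 bases were identical, and the differences from miR-193 to miR-193b were U9C, A20G and G21C. The array's probe sequences were not used here, so whether a probe for one of these also binds the other was not tested, and their values are read by the array's names alone. The seeds of miR-365 and of miR-193* each belonged to 1 mature name in that table.

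The 4 hairpins show how the products lie in the genome. Capitals mark the strands that the array measured.
Mir193a, chr11:79711969-79712034, plus strand: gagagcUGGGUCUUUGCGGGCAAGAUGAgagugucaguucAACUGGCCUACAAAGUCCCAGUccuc
Mir365-2, chr11:79726400-79726511, plus strand: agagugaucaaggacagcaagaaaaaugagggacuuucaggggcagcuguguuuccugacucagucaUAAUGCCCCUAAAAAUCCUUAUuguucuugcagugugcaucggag
Mir193b, chr16:13449523-13449601, plus strand: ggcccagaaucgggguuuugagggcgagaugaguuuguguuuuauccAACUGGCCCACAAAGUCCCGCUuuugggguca
Mir365-1, chr16:13453840-13453926, plus strand: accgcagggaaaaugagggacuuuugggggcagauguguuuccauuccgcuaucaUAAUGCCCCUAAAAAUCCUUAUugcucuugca
The chromosome 11 hairpins lie 14365 bases apart and the chromosome 16 hairpins 4238 bases apart. miR-365 is cut with the same sequence from Mir365-2 and from Mir365-1, so its array signal joins both clusters. miR-193 and miR-193* are the strands of the single Mir193a hairpin on chromosome 11. miR-193b comes from chromosome 16. The other strands of Mir193b, Mir365-1 and Mir365-2 were not analysed here.

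Arrays were divided by the 75th percentile of probes above background, so a level below is the log2 of a signal over that percentile. Before scaling, that percentile was 689, 514, 1403 and 1595 on the UUO arrays and 417 to 582 on the control arrays, and 243 to 310 miRNAs were above background on the UUO arrays and 228 to 240 on the control arrays. UUO kidney 2 stood apart. Its mean correlation across tested miRNAs was 0.887 with the other UUO arrays and 0.964 with the control arrays. In the fit over all tested miRNAs (limma, Benjamini-Hochberg adjusted p under 0.05), 13.5% were called lower and 1.35% higher in UUO kidneys. Without UUO kidney 2 these shares were 30.2% and 20.7%, and results are therefore given with and without it. The number of calls changed when any single array was left out, and the cause was not tested. With all 8 arrays 33 miRNAs were called, without control kidney 2 there were 20, and without UUO kidney 4 there were 14. By limma 0 were called without control kidney 1, 3 or 4 or UUO kidney 1 or 3. In those fits 54 to 67 miRNAs had an unadjusted p under 0.05.

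miR-365, the product common to both clusters, was lower in every UUO kidney than in any control kidney. Its log2 scaled level was 0.66, 1.50, 0.77 and 0.34 in UUO kidneys 1 to 4, against 2.02, 2.02, 2.05 and 2.11 in control kidneys 1 to 4. The control kidneys lay close together, the UUO kidneys spread widely, and UUO kidney 2 was nearest to the controls. The mean was 0.82 ± 0.49 in UUO kidneys and 2.05 ± 0.043 in control kidneys (SD, n = 4 each), a log2 change of -1.23 ± 0.24 (SE), or 2.35-fold lower. Without UUO kidney 2 the change was -1.46 ± 0.13 (SE, n = 3 and 4). Of its 2 probes, 1 changed by -1.24 and the other by -1.23, both above background on all arrays, with spots of a probe differing by a median coefficient of variation of 5.26% and 3.79%.

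miR-193, the 3′ strand of Mir193a, was lower in 3 UUO kidneys and not in UUO kidney 2. Its log2 scaled level was -2.05, 0.38, -1.39 and -1.62 in UUO kidneys 1 to 4, against -0.36, 0.65, -0.44 and -0.34 in control kidneys 1 to 4. Kidney 2 was the highest of its group in both groups, and UUO kidney 2 lay above 3 of the 4 control kidneys, so the groups overlapped. The mean was -1.17 ± 1.07 in UUO kidneys and -0.12 ± 0.52 in control kidneys (SD, n = 4 each), a log2 change of -1.05 ± 0.52 (SE). Without UUO kidney 2 the change was -1.56 ± 0.31 (SE, n = 3 and 4). Both probes of miR-193 placed kidney 2 highest in each group, at 0.52 and 0.50 above the control mean in UUO kidney 2 and 0.70 and 0.78 above it in control kidney 2.

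miR-193*, the 5′ strand of the same hairpin, was dim. Its log2 scaled level was -5.23, -3.94, -4.81 and -4.72 in UUO kidneys 1 to 4, against -3.33, -3.92, -3.72 and -3.27 in control kidneys 1 to 4. All UUO kidneys lay below all control kidneys, though UUO kidney 2 did so by little from control kidney 2. The mean was -4.67 ± 0.54 in UUO kidneys and -3.56 ± 0.32 in control kidneys (SD, n = 4 each), a log2 change of -1.11 ± 0.29 (SE), or 2.16-fold lower, and -1.36 ± 0.21 without UUO kidney 2. The floor of the scale stood at -5.56, close to the lowest of these values. Of its 4 probes, 2 were never above background and lay at the floor on all 8 arrays, and the other 2 changed by -1.18 and -0.62 and reached the floor on 2 and 3 UUO arrays, so both understate their change.

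miR-193b, the chromosome 16 relative with the same seed as miR-193, had a smaller difference. Its log2 scaled level was -2.57, -2.64, -2.74 and -2.77 in UUO kidneys 1 to 4, against -2.66, -2.08, -2.10 and -2.54 in control kidneys 1 to 4. The UUO kidneys lay together at the lower end, with control kidney 1 among them, and here UUO kidney 2 was in the middle of its group. The mean was -2.68 ± 0.090 in UUO kidneys and -2.34 ± 0.30 in control kidneys (SD, n = 4 each). The log2 change was -0.34 ± 0.17 (SE), and without UUO kidney 2 it was -0.35 ± 0.18. Its 2 probes changed by -0.36 and -0.29.

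**Figure D1:**
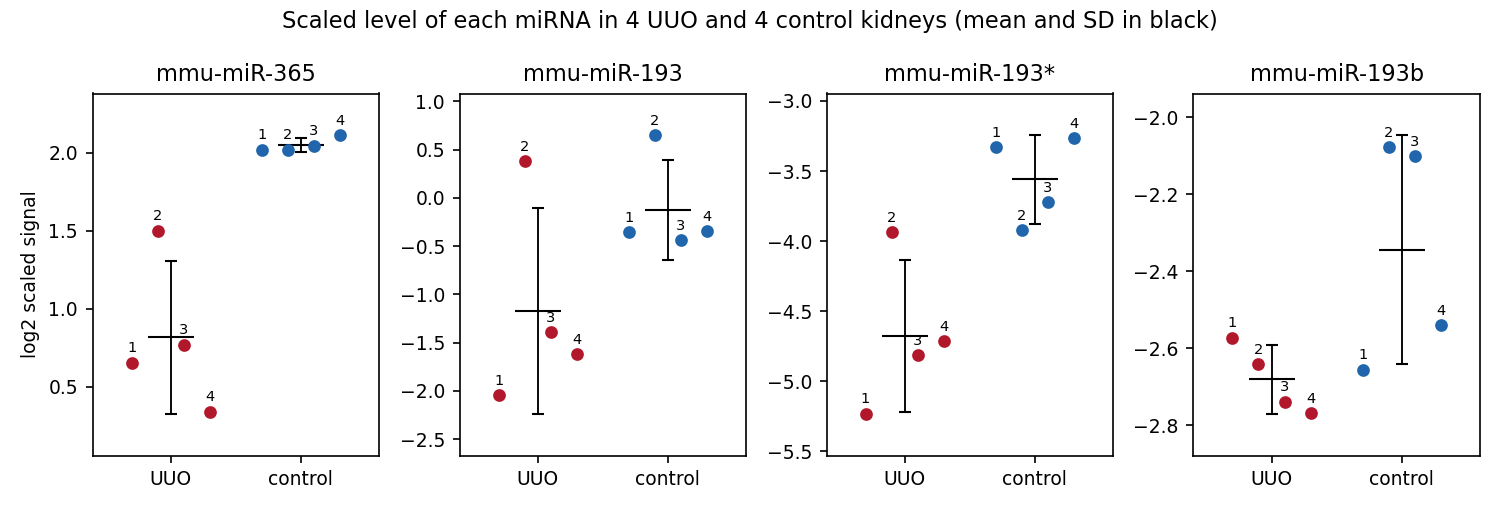
Log2 scaled signal (y axis) of the 4 miRNAs in UUO and control kidneys, with a point for each kidney labelled by its number and the mean and SD in black; each panel has its own y range. miR-365 and miR-193* have no overlap between the groups, and miR-193 is highest in kidney 2 of both groups.

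Ordered by log2 change among the 222 tested miRNAs from the lowest, miR-365 was number 9, miR-193* number 13, miR-193 number 18 and miR-193b number 76. The median change of all tested miRNAs was -0.14, and the 4 lay -1.09, -0.97, -0.91 and -0.20 from it in that order. With normexp background correction these distances were -0.49, -0.66, -0.33 and -0.18. Of the 4, 2 were called lower (miR-365 and miR-193*) and 0 higher, which the choice of members largely fixed. The same 2 had no overlap between groups, as had 21.2% of all tested miRNAs in that direction, and 1.8% in the other. Without UUO kidney 2, 3 were called lower, miR-193 being added, beside 30.2% called lower and 50.9% called either way among all tested miRNAs. Nothing is read from these counts.

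**Figure D2:**
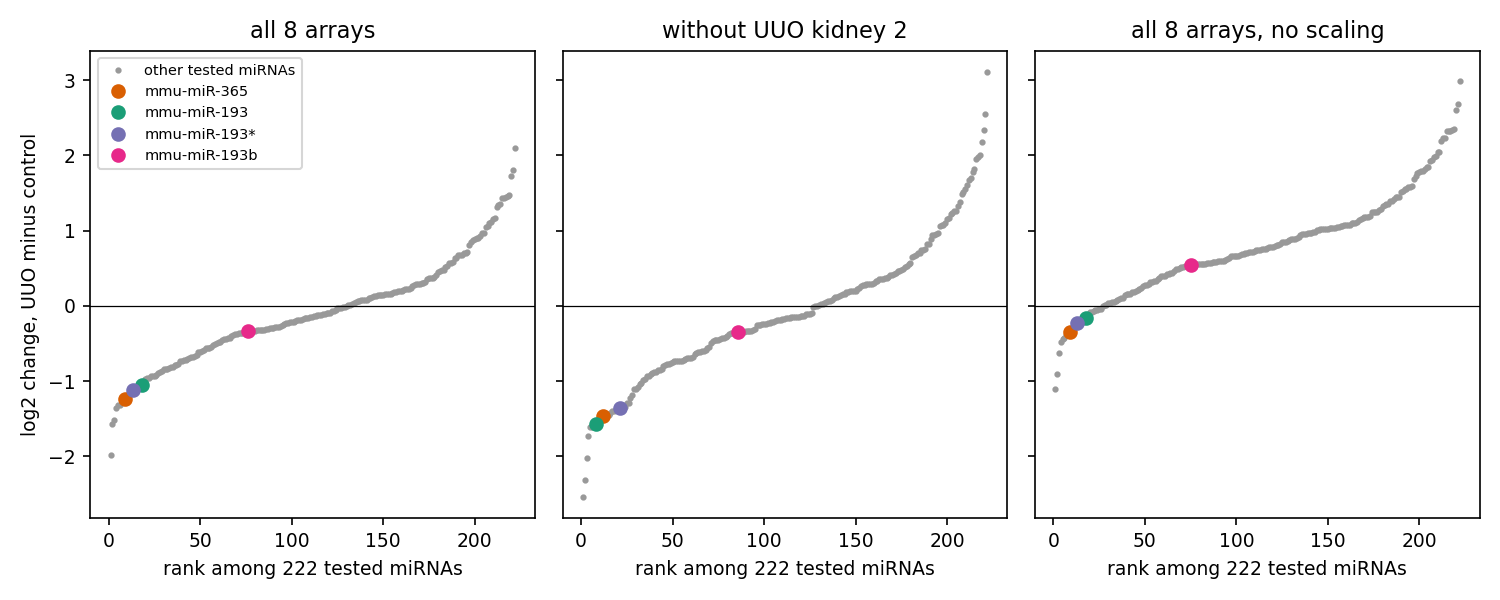
Log2 change, UUO minus control kidneys (y axis), of 222 tested miRNAs in rising order (x axis), with the 4 miRNAs in colour, for all 8 arrays, without UUO kidney 2, and without scaling between arrays. miR-365, miR-193 and miR-193* lie near the low end in each panel, and miR-193b at -0.34 lies nearer the middle.

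These differences depend on that scaling, and before it the groups overlapped for all 4. The processed signal of miR-365 was 1086, 1455, 2394 and 2022 in UUO kidneys 1 to 4, against 2082, 1693, 2280 and 2516 in control kidneys 1 to 4. UUO kidneys 3 and 4, whose arrays were the brightest, lay within the control range, and UUO kidneys 1 and 2 lay below it. The signal of miR-193 was 167, 669, 535 and 518 in UUO kidneys 1 to 4, against 401, 655, 407 and 459 in control kidneys 1 to 4. Only UUO kidney 1 fell below the controls there. Without scaling the log2 change was -0.35 ± 0.45 for miR-365, -0.17 ± 0.50 for miR-193, -0.23 ± 0.49 for miR-193* and 0.54 ± 0.47 for miR-193b (SE, n = 4 each). The median of all tested miRNAs then was 0.74, a shift of 0.88, and the distances of the 4 from it were the same as with scaling, because scaling moves all miRNAs of an array by the same amount.

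**Figure D3:**
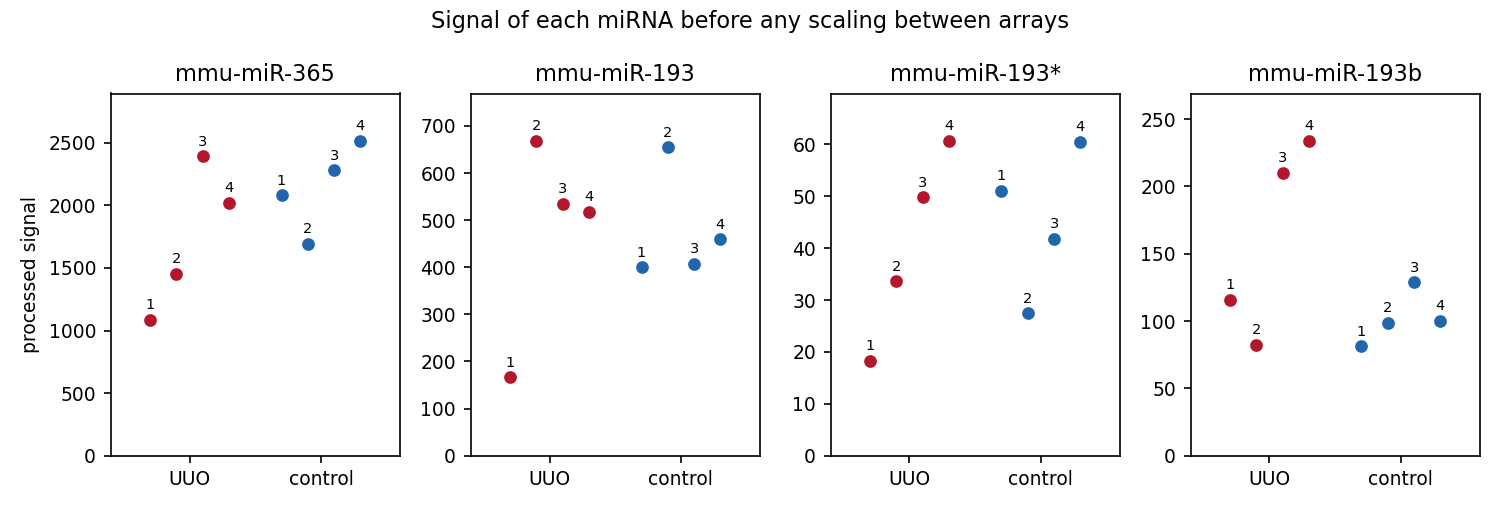
Processed signal before any scaling between arrays (y axis, from 0) of the 4 miRNAs in UUO and control kidneys, with a point for each kidney labelled by its number. The groups overlap in each panel, and for miR-365 the UUO kidneys run from 1086 to 2394 and the control kidneys from 1693 to 2516.

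A ratio of 2 miRNAs on the same array does not depend on such a constant, and it sets the cluster mates side by side. The log2 ratio of miR-365 to miR-193*, taken from its control mean, was 0.28, -0.17, -0.024 and -0.55 in UUO kidneys 1 to 4, against -0.26 to 0.33 in control kidneys. UUO kidneys 1 to 3 lay within the control range and UUO kidney 4 below it. The mean was -0.12 ± 0.34 in UUO kidneys and 0 ± 0.29 in control kidneys (SD, n = 4 each). The log2 ratio of miR-365 to miR-193 varied more, at 0.53, -1.05, -0.011 and -0.21 in UUO kidneys 1 to 4, against 0.21, -0.80, 0.31 and 0.28 in control kidneys 1 to 4. Kidney 2 was the lowest of its group in both groups, and the mean was -0.18 ± 0.66 in UUO kidneys and 0 ± 0.54 in control kidneys (SD, n = 4 each). The log2 ratio of miR-365 to miR-193b was -1.16, -0.25, -0.88 and -1.28 in UUO kidneys 1 to 4, against 0.28, -0.30, -0.25 and 0.26 in control kidneys 1 to 4. That ratio was lower than in any control kidney in UUO kidneys 1, 3 and 4, and UUO kidney 2 lay within the control range. Its mean was -0.90 ± 0.46 in UUO kidneys and 0 ± 0.31 in control kidneys (SD, n = 4 each). The ratio of miR-193* to miR-193b ran the same way, at -1.44, -0.078, -0.86 and -0.73 in UUO kidneys 1 to 4, against -0.63 to 0.54 in control kidneys. Thus 3 UUO kidneys had less of miR-365 and of miR-193* relative to miR-193b than any control kidney. These ratios do depend on background correction. With normexp the log2 changes were -1.11 for miR-365, -1.28 for miR-193* and -0.81 for miR-193b, closer together than with the main settings. A ratio shows unequal change and does not say which of the miRNAs changed in amount.

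Other neighbouring miRNAs give a scale for these distances. Of 17 further pairs from shared clusters, 12 had both mates tested, and the log2 changes of the mates differed by 0.0074 to 0.28, with a median of 0.11. For example, miR-192 and miR-194, abundant in kidney tubules, stood at -1.27 and -1.31, miR-199a-5p and miR-214, of the Dnm3os transcript, at 1.16 and 1.44, miR-221 and miR-222 at -0.44 and -0.33, and the epithelial miR-200b and miR-429 at -0.59 and -0.60. The difference between miR-365 and miR-193 was 0.18 and that between miR-365 and miR-193* 0.12, inside the range of those pairs. The first is a difference of means whose ratio on single arrays spread widely. The difference between miR-365 and miR-193b was 0.90, outside that range. With normexp background correction the changes were -1.11 for miR-365 and -0.81 for miR-193b, so the 0.90 depends on background correction. miR-365 can come from both clusters, so neither the 0.18 and 0.12 nor the 0.90 is a difference between mates of a single transcript. How much of miR-365 came from each cluster was not tested. Whether each mate of the other pairs comes from a single locus was not examined here.

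The strands of Mir193a stood at -1.05 and -1.11, a difference of 0.067. Among 15 other hairpins with both strands tested, out of 102 with both on the array, the difference was 0.0049 to 1.82, with a median of 0.18. The 4 named were miR-30a with miR-30a* (-0.84 and -0.78), miR-22 with miR-22* (-0.61 and -0.48), let-7d with let-7d* (-0.25 and -0.56) and miR-10a with miR-10a* (0.0043 and 0.040). Equal mean changes did not mean equal arrays for Mir193a. The log2 ratio of miR-193 to miR-193* from its control mean was -0.25, 0.88, -0.013 and -0.34 in UUO kidneys 1 to 4, against -0.47, 1.14, -0.15 and -0.51 in control kidneys 1 to 4. The ratio was high in kidney 2 of both groups. In UUO kidney 2 miR-193 and miR-193* were each the highest of the UUO kidneys. In control kidney 2 miR-193 was the highest of the control kidneys and miR-193* the lowest.

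**Figure D4:**
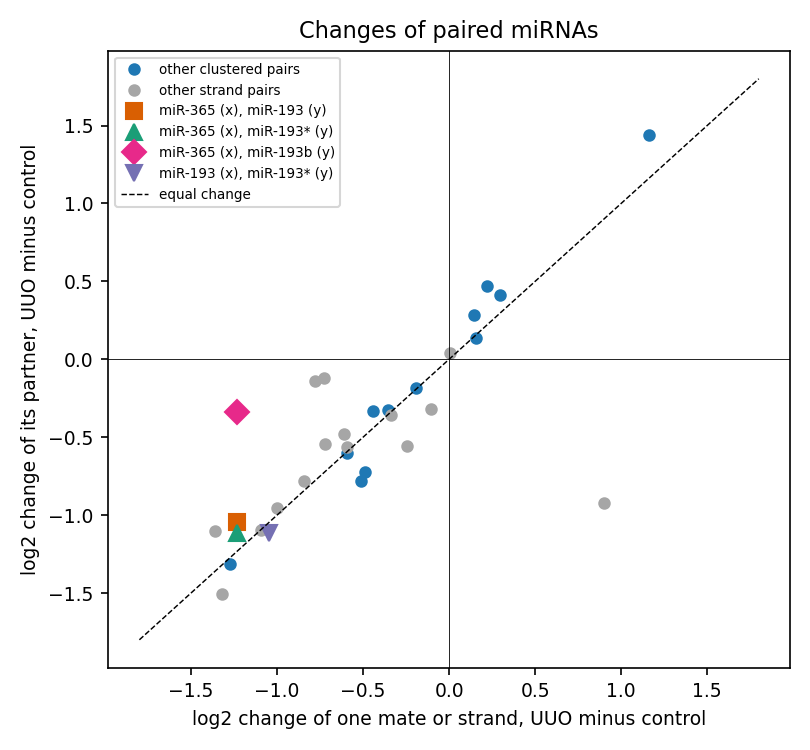
Log2 change, UUO minus control kidneys, of one member of a pair (x axis) and of its partner (y axis), for clustered pairs, strand pairs and the pairs described here; the dashed line marks equal change. miR-365 with miR-193 or miR-193* lies near the line, and miR-365 with miR-193b lies 0.90 above it.

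Erythroid miRNAs were high on the same 2 arrays as miR-193, kidney 2 of each group, and did not follow it on the others. The scaled signal of miR-451, made in red cell precursors and abundant in blood, was 7.48, 24.04, 5.08 and 6.05 in UUO kidneys 1 to 4, against 6.34, 44.0, 5.10 and 6.85 in control kidneys 1 to 4. Kidney 2 was the highest of its group in both groups, and the other 6 kidneys lay close together across the groups. miR-193 did not, since UUO kidneys 1, 3 and 4 lay at -1.92, -1.27 and -1.50 from its control mean. miR-144, from the same cluster as miR-451, was above background in kidney 2 of each group and in no other, and miR-486 was 0.27 in UUO kidney 2 against 0.057 to 0.075 in the other UUO kidneys, and 0.41 in control kidney 2 against 0.045 to 0.082 in the other control kidneys. All 3 erythroid markers therefore stood high on the same 2 arrays as miR-193, and their summed level ran from 5.16 to 24.4 in UUO kidneys and from 5.17 to 44.6 in control kidneys. Between the groups, miR-451 stood at -0.20 ± 0.77 and miR-486 at -0.11 ± 0.75 (SE, n = 4 each; limma adjusted p = 0.867 and 0.929). Their part in the miR-193 values was not tested.

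With kidney 2 of both groups left out, a choice made after these levels were seen, the overlap of miR-193 ended. Its log2 scaled level then ran from -2.05 to -1.39 in UUO kidneys and from -0.44 to -0.34 in control kidneys, a change of -1.31 ± 0.18 (SE, n = 3 each). The changes were -1.47 ± 0.14 for miR-365, -1.48 ± 0.20 for miR-193* and -0.26 ± 0.17 for miR-193b. The 3 products miR-365, miR-193 and miR-193* were thus 2.47-fold to 2.79-fold lower in these UUO kidneys, and miR-193b was 1.20-fold lower.

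**Figure D5:**
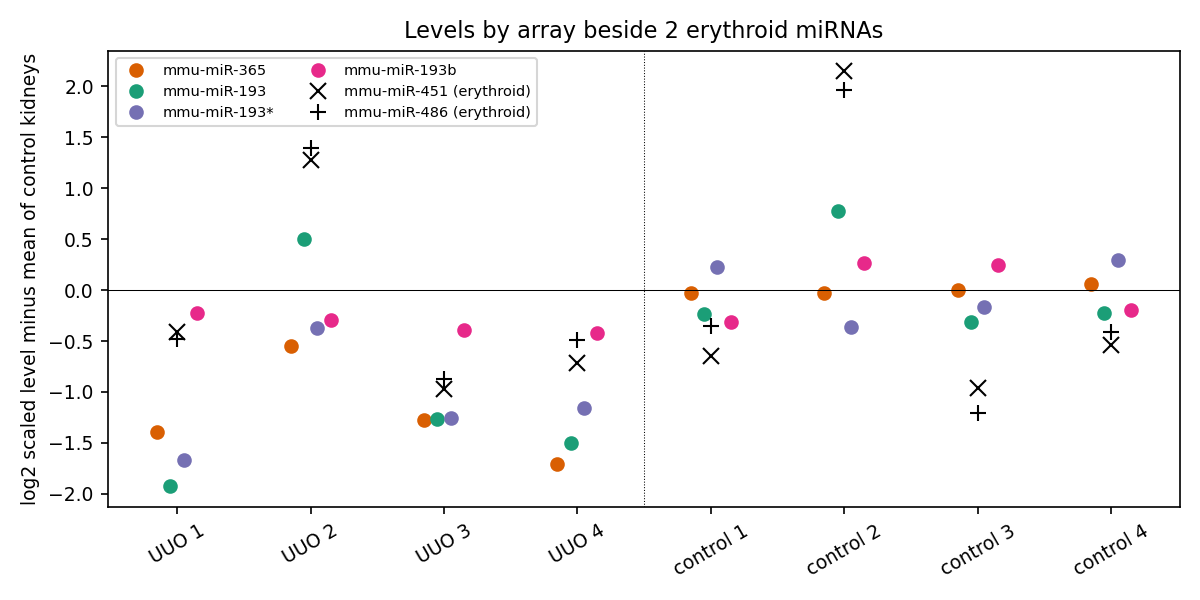
Log2 scaled level minus the mean of the control kidneys (y axis) in each of the 8 kidneys (x axis) for the 4 miRNAs (circles) and the erythroid miR-451 and miR-486 (crosses). miR-193 and both erythroid miRNAs are highest in UUO kidney 2 and control kidney 2 within their groups, which miR-193* in the control kidneys is not.

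The summed level of kidney tubule markers was lower in every UUO kidney than in any control kidney, UUO kidney 2 included. It was 17.8 to 22.6 in UUO kidneys and 28.5 to 33.0 in control kidneys, and 2 of 5 tested members were called lower and 0 higher, beside 13.5% and 1.35% of all tested miRNAs, with miR-192 at -1.27 ± 0.26 (limma adjusted p = 0.0213) and miR-10a at 0.0043 ± 0.15 (adjusted p = 0.980; SE, n = 4 each). In kidney RNA, fewer cells of a type and less of a miRNA in each cell cannot be told apart. The 2 tubule markers called lower were the cluster mates miR-192 and miR-194. miR-10b was at -0.48 ± 0.15 and miR-204 at -0.12 ± 0.25 (limma adjusted p = 0.0701 and 0.755; SE, n = 4 each). A fall was thus not shared by all tubule markers. Of the 6 tubule markers miR-215 was above background on no array. Leukocyte markers summed to 1.88 in UUO kidney 2, 6.84 to 7.69 in the other UUO kidneys and 1.99 to 2.71 in control kidneys. None of their 5 tested members was called (3 at an unadjusted p under 0.05), with miR-223 at 1.45 ± 0.50 (limma adjusted p = 0.0837) and miR-146a at 0.67 ± 0.30 (adjusted p = 0.149), and without UUO kidney 2 all 5 rose, beside 20.7% of all tested miRNAs. The part of tubule and leukocyte content in the values of miR-365 and miR-193 was not tested.

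Of the other marker groups, the endothelial miR-126-5p fell by 0.81 on the log2 scale (SE 0.18, limma adjusted p = 0.0266) and miR-126-3p was at -0.30 ± 0.15 (adjusted p = 0.201; n = 4 each), with a summed level of 9.57 to 13.2 in UUO kidneys and 12.1 to 15.2 in control kidneys. The smooth muscle miR-143 was at 0.10 ± 0.23, the striated muscle miR-1 at -0.81 ± 0.29, and miR-128 and miR-9, abundant in brain, at -0.27 ± 0.15 and -0.10 ± 0.24, none of them called. miR-1 was dim, with a scaled signal of 0.0214 in UUO kidney 4 against the floor of 0.0213. The markers miR-208a, miR-124, miR-122 and miR-217, of heart, brain, liver and pancreas, were above background on no array. The other pancreas marker, miR-375, was above background on 3 UUO and 2 control arrays, too few to be tested. Its scaled signal was 0.143, 0.0213, 0.133 and 0.119 in UUO kidneys 1 to 4, against 0.0434, 0.0221, 0.0805 and 0.0251 in control kidneys 1 to 4.

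The miRNAs whose profile over the 8 arrays was nearest to that of miR-365 were miR-101a, miR-29c*, miR-29c, miR-192, miR-185 and miR-378*. Likeness was the root mean square difference of log2 levels, each taken from its control mean, and it was 0.13 to 0.21 for these 6, against a median of 0.95 over all other tested miRNAs. By the same measure miR-193* stood 0.29, miR-193 0.53 and miR-193b 0.72 from miR-365, so the cluster mates were not the nearest. miR-101a, described as a repressor of the methyltransferase EZH2, lay at -1.14, -0.65, -1.12 and -1.59 from its control mean in UUO kidneys 1 to 4, where miR-365 lay at -1.39, -0.55, -1.28 and -1.71. miR-29c, described as a repressor of collagen messenger RNAs, lay at -1.25, -0.69, -1.11 and -1.32. Their log2 changes ran from -1.27 to -0.95. All 6 were among the called miRNAs, beside 14.9% of all tested, which their likeness to miR-365 largely fixed, and nothing is read from it.

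Nearest to miR-193* were miR-29c*, miR-185 and miR-29c, at 0.17 to 0.25, which also stood near miR-365. Nearest to miR-193 were miR-30e*, miR-378 and miR-30c, at 0.27 to 0.34. In UUO kidney 2 these lay at 0.22, 0.060 and -0.042 from their control means, near or above 0 as miR-193 did at 0.50, and in the other UUO kidneys between -1.78 and -1.18. Among the control kidneys they were highest in control kidney 2, at 0.37, 0.31 and 0.23. Being highest in kidney 2 of both groups was thus not particular to miR-193 and the erythroid miRNAs. Nearest to miR-193b were miR-345-5p, miR-151-5p and miR-99a, at 0.11 to 0.17, with changes from -0.36 to -0.32, none of them called.

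miRNAs described with the miR-193b and miR-365 cluster in brown fat or muscle differentiation gave a mixed picture. The list was not divided into promoters and repressors of differentiation, so no direction was set for its median or counts. Of 16 such miRNAs, 12 were tested, 2 fell and 0 rose, beside 13.5% and 1.35% of all tested miRNAs, and the list median was -0.50 against -0.14 for all tested. miR-455, described as a promoter of brown fat differentiation, fell by 1.32 on the log2 scale (SE 0.34, limma adjusted p = 0.0335), and miR-203, best known from skin epithelium, fell by 0.93 (SE 0.16, limma adjusted p = 0.0172; n = 4 each). miR-30c was at -1.22 ± 0.37 (adjusted p = 0.0649), miR-27b at -0.18 ± 0.13, miR-196a at -0.21 ± 0.14 and miR-34a at -0.19 ± 0.20. Without UUO kidney 2, 5 fell and 3 rose, beside 30.2% and 20.7% of all tested miRNAs. Those that rose were miR-155 (1.98), miR-93 (0.67) and miR-106b (0.52), named after their values were seen, and miR-155 is also a leukocyte marker. The muscle miRNAs miR-133a, miR-133b and miR-206, and miR-182, were above background on too few arrays to be tested.

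Slide rows gave the same direction for all 4, which the choice of members on these same arrays largely fixed. Kidneys 1 and 2 lay in row 1 of the slide, and kidneys 3 and 4 in row 2, for either group. Within row 1 the log2 change was -0.94 ± 0.41 for miR-365 and -0.98 ± 0.93 for miR-193. For miR-193* and miR-193b it was -0.96 ± 0.57 and -0.24 ± 0.36 there. Within row 2 it was -1.52 ± 0.21, -1.11 ± 0.16, -1.27 ± 0.22 and -0.43 ± 0.21 in the same order (SE, 2 kidneys a group). Row 1 also held both kidneys with high erythroid levels, and its miR-193 value joins UUO kidney 1 at -2.05 with UUO kidney 2 at 0.38.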

How the data were processed

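RNA from harvested kidneys was prepared by Trizol and a column kit, and Cy3 was put on 100 ng for 1-colour Agilent mouse miRNA arrays, per the labels' protocols. The authors deposited intensities per spot. The software was Feature Extraction by Agilent, given as 10.7.3.1 in the file headers and as 10.1.1 in the submitters' processing notes, with background subtracted and spatial trends removed by that software and no scaling between arrays. The other deposited columns used were marks of 0 or 1 per spot, per the file headers. The authors' series matrix held the same intensities exactly.

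Spots marked as outliers were left out and no spot was saturated. Spots were averaged per probe (1759 mouse probes), signals were divided by the array's own 75th percentile of 371 probes that every array showed above background, and probes of a miRNA were summed, floored at 0.0213 and put on the log2 scale. A probe was above background when that mark stood on over 50% of its spots, and a miRNA when 1 of its probes was. The 222 miRNAs above background on all 4 arrays of a group were fitted with limma 3.58.1 in R 4.3.3 (lmFit, eBayes, two-sided, Benjamini-Hochberg), with no block. The number of arrays limits the precision. The fit was tested on simulated data. Spread is SD, and SE is limma's. The rest used matplotlib 3.10.9, numpy 2.4.6 and pandas 2.3.3 under Python 3.11.15.

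The members and lists were chosen with earlier results of these data known. Outside the 4 members, miRNAs were named by a rule that took the 6 nearest profiles to miR-365 and the 3 nearest to each other member, up to 6 of the brown fat and muscle list, 4 clustered pairs, 4 strand pairs and 2 per marker list. Alternatives changed scaling, background correction, probe summary, floor, filter, blocks, weights and the arrays used. Normexp used the median spot signal. The labels do not say whether kidneys of the same number share an animal. Their deviations from the group means correlated at -0.35, 0.22, 0.62 and 0.015 for numbers 1 to 4, which does not settle it, and the fit without a block was kept.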

Additional observations from a re-analysis of the deposited data

Results flagged for a closer look

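The log2 scaled level of miR-193 in control kidney 2, 0.65, lay far from the other control kidneys, which ran from -0.44 to -0.34. The gap to the nearest of them, as a share of the group's range, exceeded Dixon's 95% critical value for 4 samples. The log2 ratio of miR-365 to miR-193 in the same kidney stood apart with it, at -0.80 from the control mean against 0.21 to 0.31 in the other control kidneys, and rests on the same miR-193 value. In all 24 groups of values were examined for such gaps, and chance gives about 1 in 20. Erythroid miRNAs were also highest in that kidney, and their part in the value was not tested.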

How the results depend on the processing

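miR-365, miR-193 and miR-193* kept a negative log2 change under each alternative run, and miR-193b did so except without scaling. Without scaling, and with the identical unscaled series matrix, the changes were -0.35 for miR-365, -0.17 for miR-193, -0.23 for miR-193* and 0.54 for miR-193b, all shifted with the median of all tested miRNAs. The mean of log2 probe signals gave -0.45 for miR-193*, since 2 of its probes lie at the floor. Normexp gave -0.81 for miR-193b, where the median of all tested miRNAs moved by -0.48 and the distance from it was -0.18 for miR-193b, -0.49 for miR-365, -0.33 for miR-193 and -0.66 for miR-193*, against -0.20, -1.09, -0.91 and -0.97 with the main settings. For miR-365 normexp gave -1.11, so miR-365 and miR-193b lay closer together than with the main settings. Quantile normalization gave -0.68 for miR-193*, or -0.62 from the median. Each array left out in turn gave -1.46 to -1.07 for miR-365, -1.56 to -0.75 for miR-193, -1.36 to -0.93 for miR-193* and -0.44 to -0.25 for miR-193b.

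The number of miRNAs called was 33 with the main settings. It was 138 with array weights, 17 with no filter, 3 without scaling and with the series matrix, 0 with normexp, 2 with quantile normalization, 0 with scaling over all mouse probes, 0 within slide row 1, 69 within slide row 2, 108 with kidney 2 of both groups left out, and 0 to 113 with one array left out. Members called lower, 2 with the main settings, were 0 with no filter, without scaling, with the series matrix, normexp, quantile normalization, scaling over all mouse probes and within slide row 1, were 1 with slide row as a block, and ran from 0 to 3 when each array was left out. Calls of miR-365 and miR-193* both ended when control kidney 1, 3 or 4 or UUO kidney 1 or 3 was left out. In those fits 0 of all tested miRNAs were called. The members were picked by the same difference in these arrays, so nothing is read from their counts of calls. The share of all tested miRNAs called lower is given only for the main settings, 13.5%, and without UUO kidney 2, 30.2%. The brown fat and muscle list had 6 members called lower with array weights and with kidney 2 of both groups left out. Within slide row 2 it had 5, and with no filter 1. That count was 0 without scaling, with the series matrix, normexp, quantile normalization, scaling over all mouse probes and within slide row 1. When each array was left out it ran from 0 to 5. Calls among all tested miRNAs, in either direction, also rose with array weights (138), without kidney 2 of both groups (108) and within slide row 2 (69). Their share called lower is not given for these settings, so nothing is read from the list counts there. Where no miRNA was called by limma, 56 had an unadjusted p under 0.05 with scaling over all mouse probes, 54 with normexp, 1 within slide row 1 and 67 with the replicate block. The causes were not tested.

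With the kidney number as a replicate block, 0 miRNAs, 0 members and 0 of the brown fat and muscle list were called, with changes of -1.23 for miR-365 and -1.05 for miR-193 as before. The SE of miR-193 was 0.27 with the block, against 0.52 without it. Whether the numbers pair the samples is not known. Without scaling, and with the series matrix, called falls among other named miRNAs turned to 0.44 for miR-221, 0.28 for miR-429, 0.039 for miR-30a, 0.27 for miR-22 and 0.074 for miR-126-5p. The dim miR-193* is limited by signal over background.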
